A study of Mus musculus with 8 samples.

Results

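The genes described here are 51 genes of DNA replication and S phase, given as a list of symbols and measured in LSK cells of 8 mice. LSK cells are bone marrow cells that lack lineage markers and carry Sca1 and Kit, a gate that holds blood stem cells and early progenitors. All 51 symbols were found among the 47311 genes to which the deposited transcripts were matched, and all 51 passed the filter on low counts that left 25543 genes for testing. There were 2 mice in each of 4 groups: young (aged 8 to 12 weeks) Asxl2 wild type (WT), young Asxl2 knockout (KO), old (over 1 year of age) Asxl2 WT and old Asxl2 KO. Asxl2 is a chromatin gene mutated in acute myeloid leukemia, and the labels give no allele, strain or cell type for its knockout. Each of 4 litters gave 1 mouse of each genotype at a single age, so the old mice came from 2 litters and the young mice from the other two, and each group had 1 mouse in batch 1 and 1 in batch 2, which the labels number and date to different years. The labels give the litter and no other tie between the mice, so replicate numbers only name a library. Pairs of values below are in the order replicate 1, replicate 2; batch 1 held replicate 1 of both old groups and replicate 2 of both young groups.

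Replication begins when the origin recognition complex marks a stretch of DNA and, with Cdc6 and Cdt1, loads the ring-shaped Mcm helicase before S phase. Kinases then activate the helicase with Cdc45 and the GINS proteins, primase and polymerase alpha start new strands, and polymerases delta and epsilon extend them around the Pcna clamp. Many of these genes are transcribed at the entry to S phase under E2F factors, and in marrow most long-term stem cells are quiescent while progenitors cycle. In bulk RNA of a gate, fewer cycling cells and less RNA per cycling cell cannot be told apart.

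Library totals ran from 45737972 to 80388500 estimated counts. Asxl2 itself measured 4.63 to 5.63 TPM (a level scaled for transcript length and library depth) in KO and 23.0 to 30.8 TPM in WT libraries. The 9 genes of the LSK gate were above 1 TPM in every library, with Kit at 63.4 to 547 TPM and Ly6a, which encodes Sca1, at 150 to 661 TPM. Cd3e of T cells, Pax5 of B cells, Gp6 of megakaryocytes and the endothelial genes Cdh5 and Kdr were under 1 TPM in every library. Other genes of these lists were higher. Above 1 TPM in every library were 3 of 8 T and NK cell, 2 of 8 B cell and 6 of 7 megakaryocyte genes. So were 2 of 8 genes of stroma and endothelium, 6 of 11 erythroid genes and 3 of 7 of mast cells and basophils. Mature neutrophil and monocyte genes, 6 of 11 above 1 TPM in every library, summed to 536 to 2429 TPM. Long genes stood lower relative to short genes in some libraries than in others. This was measured as the slope of log2(TPM + 1) on log2 effective length (the number of positions at which a fragment can start). Over protein-coding genes above 5 TPM, the slope ran from -0.881 to -0.610 in KO and from -0.571 to -0.265 in WT libraries. In old libraries it ran from -0.881 to -0.556 and in young from -0.610 to -0.265. Changes of the replication genes are therefore given beside those of genes of similar length. Litter 1, an old KO and an old WT mouse, had Xist RNA (3.33 and 3.61 TPM), which marks females, while the other 6 libraries had at most 0.0612 TPM. Litter 1 gave both old mice of batch 1, so age and sex cannot be told apart within batch 1. Over both batches they are confounded in part.

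The replication genes spanned a wide range of levels. Mean TPM over the 8 libraries ran from 11.7 for Orc1, an origin recognition subunit, to 724 for Rfc2, a clamp loader subunit. Mcm6 at 515.0, Slbp at 417 and Mcm7 at 399 followed Rfc2, and Ccne1 at 18.0 and Pola1 at 24.2 stood above Orc1. Effective lengths ran from 401 bases for Rpa3 to 5012 bases for Pola1, with a median of 1819. A gene's effective length is the mean over its transcripts weighted by TPM, so abundant short transcripts make it short. The TPM of all 51 genes summed to 8599 to 9387 in the 4 young libraries and to 6644 to 8003 in the 4 old libraries, so the age groups did not overlap. KO libraries summed to 6644 to 9255 and WT libraries to 7088 to 9387, which overlapped.

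**Figure D1:**
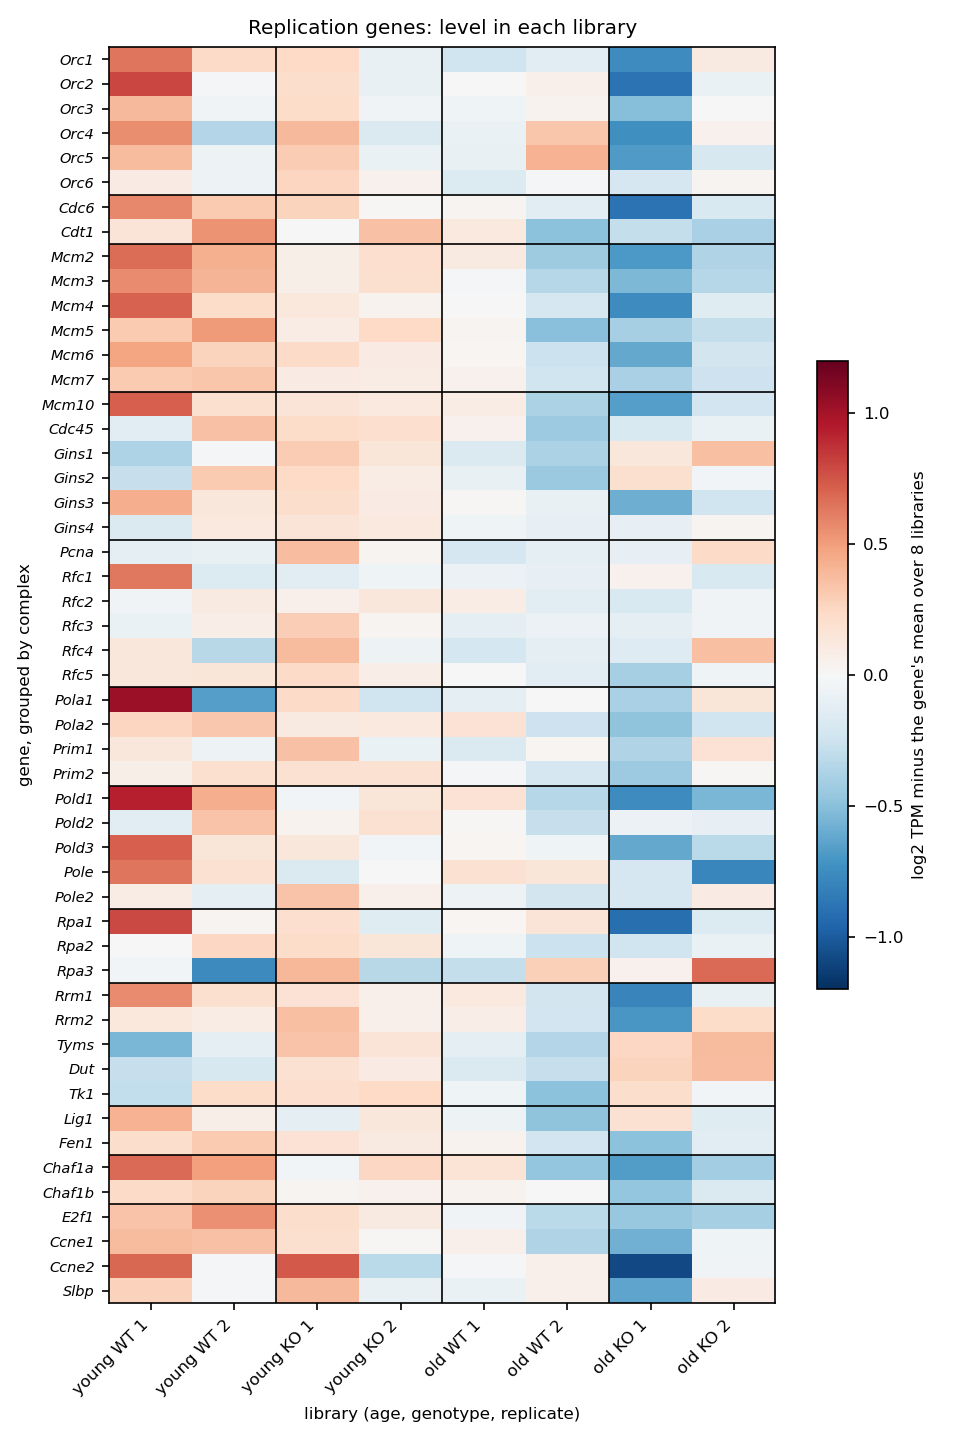
Each row is a replication gene, grouped by complex, and each column is 1 library; color gives log2 TPM minus that gene's mean over the 8 libraries. Old KO replicate 1 is the lowest column for most origin, Mcm and polymerase genes (summed TPM of all 51 genes 6644), and young WT replicate 1 has the highest sum (9387), while Tyms, Dut, Gins1 and Rpa3 follow other patterns.

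With age, taken over both genotypes, 22 of the 51 genes fell and none rose (34 were lower and 1 was higher at an unadjusted p under 0.05; DESeq2 called 29 lower and none higher). Over all genes tested, 9.61% fell, 4.34% rose and 13.9% passed in either direction. Age was thus compared between 2 litters and 2 litters, litter cannot be a block here, and the fit takes the 8 mice as independent, so its p values leave out what littermates share. The genes that fell were all 6 Mcm helicase subunits, Mcm10, both licensing loaders Cdc6 and Cdt1, Orc1, Orc2, Gins3, Pola2, Pold1, Pold3, Rpa1, Rrm1, Lig1, Fen1, Chaf1a, E2f1 and Ccne2. The median log2 change was -0.36 for the 51 genes and 0.15 for all genes tested. Protein-coding genes above 5 TPM and of similar length to each of the 51 had a median of -0.30. The shares of all genes in this paragraph are not matched for length, and 20 of the 22 genes have effective lengths of 2000 bases or more. TPM was lower in the old mouse in all 4 pairs of 1 old and 1 young mouse of the same genotype and batch for 34 of the 51 genes, against 13.9% of all genes. These 4 pairs hold only 2 contrasts of litters, each seen in both genotypes. For 12 genes all 4 old libraries lay below all 4 young ones, against 1.41% of all genes, and for none did all 4 lie above. The calls depended on single libraries: the count of 22 became 0 without old KO replicate 1 or young KO replicate 2, 2 without young WT replicate 1, 3 without old KO replicate 2, 4 without old WT replicate 1 and 11 without young KO replicate 1. It was 0 by limma on log2 TPM, where 42 genes of the 25543 passed, 5 within batch 1, 9 within batch 2 and 0 without litter 1; the median change was -0.50 within batch 1 and -0.33 within batch 2. With the counts of littermates summed, an alternative chosen after the data were seen, 31 of the 51 genes were lower and none higher by edgeR over 4 litters. In that fit 16.9% of all genes were lower and 30.1% passed in either direction, and with 1 residual degree of freedom it gave every gene of a given abundance the same spread, so it does not measure how a single gene varies between litters.

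**Figure D2:**
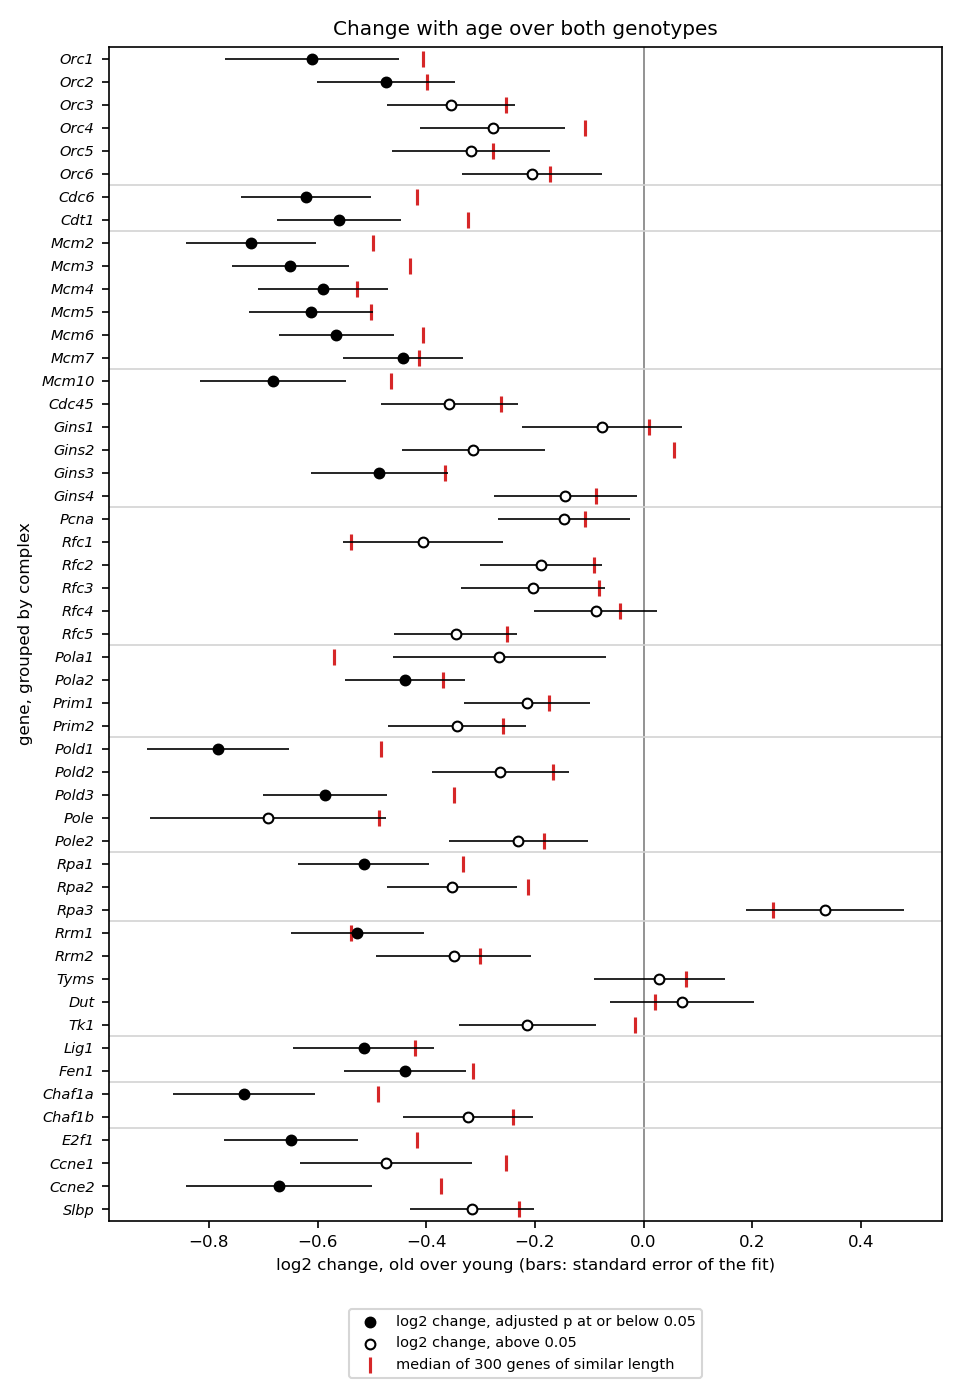
Points are log2 changes of old over young for each replication gene with the standard error of the fit; filled points passed at an adjusted p of 0.05, and red ticks are the median change of 300 genes of similar length. The 22 filled points lie between -0.78 and -0.44, and most points lie left of their tick.

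Origin recognition and licensing genes had estimates below 0 with age in all 8 cases, and 2 of 6 origin recognition genes and both loaders fell. Orc1 (ENSMUSG00000028587, chr4:108579423-108614833 in mm10), the largest subunit and an ATPase, measured 17.5 and 13.2 TPM in young WT, 13.3 and 10.6 TPM in young KO, 9.55 and 10.3 TPM in old WT and 6.66 and 12.2 TPM in old KO mice. The young WT mice held 2 of the 3 highest values and the age groups overlapped through young KO replicate 2 and old KO replicate 2. The log2 change of Orc1 with age was -0.61 (SE 0.16, adjusted p = 0.0349), with p values from edgeR's quasi-likelihood test adjusted over all genes here and below. Orc2, which forms the stable core with the other subunits, measured 58.3 and 33.1 TPM in young WT, 38.8 and 31.6 TPM in young KO, 33.4 and 35.0 TPM in old WT and 18.2 and 31.6 TPM in old KO mice, a change of -0.47 (SE 0.13, adjusted p = 0.0373). A single young WT library at 58.3 TPM stood far above the other WT libraries, which lay between 33.1 and 35.0 TPM. Orc3, Orc4, Orc5 and Orc6 did not pass, with log2 changes from -0.35 to -0.21.

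The licensing loaders place the helicase on DNA. Cdc6 (ENSMUSG00000017499, chr11:98907801-98923940), the ATPase of loading, measured 90.8 and 75.8 TPM in young WT, 73.1 and 61.3 TPM in young KO, 62.2 and 55.5 TPM in old WT and 32.9 and 53.7 TPM in old KO mice. Old KO replicate 1 was the lowest of all and the age groups overlapped only slightly, between 61.3 and 62.2 TPM. The change of Cdc6 with age was -0.62 (SE 0.12, adjusted p = 0.0213). Cdt1 (ENSMUSG00000006585, chr8:122568015-122573554), the partner that brings the helicase in, measured 117 and 152 TPM in young WT, 105 and 134 TPM in young KO, 114 and 74.3 TPM in old WT and 86.1 and 80.2 TPM in old KO mice. Both young WT mice were above both old KO mice, and old WT replicate 1 reached into the young range. The change of Cdt1 was -0.56 (SE 0.11, adjusted p = 0.0219). Genes of similar length had median changes of -0.42 for Cdc6 and -0.32 for Cdt1.

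All 6 genes of the Mcm helicase, the motor that unwinds DNA at the fork, fell with age. Their TPM summed to 1874 to 2388 in young and to 1181 to 1752 in old libraries, with no overlap. Mcm2 (ENSMUSG00000002870, chr6:88883474-88898780) measured 289 and 244 TPM in young WT, 191 and 209.5 TPM in young KO, 195 and 135 TPM in old WT and 113 and 142 TPM in old KO mice. Each genotype was lower in old than in young mice, and old WT replicate 1 slightly exceeded the lowest young library. The change of Mcm2 was -0.72 (SE 0.12, adjusted p = 0.0173), -0.75 within batch 1 and -0.72 within batch 2. Mcm3 measured 441 and 394 TPM in young WT, 312 and 340.1 TPM in young KO, 293 and 234 TPM in old WT and 204 and 234 TPM in old KO mice, a change of -0.65 (SE 0.11, adjusted p = 0.0173). Mcm4 measured 209 and 149 TPM in young WT, 139 and 131 TPM in young KO, 128 and 111 TPM in old WT and 75.3 and 115 TPM in old KO mice, a change of -0.59 (SE 0.12, adjusted p = 0.0221). In both the lowest library was old KO replicate 1 and the highest young WT replicate 1, and all old libraries lay below all young ones.

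Mcm5 (ENSMUSG00000005410, chr8:75109569-75128439) measured 264 and 303 TPM in young WT, 225 and 250.3 TPM in young KO, 217 and 149.7 TPM in old WT and 161 and 174 TPM in old KO mice, a change of -0.61 (SE 0.11, adjusted p = 0.0207). Mcm6 (ENSMUSG00000026355, chr1:128331590-128359664), the most abundant of the 6, measured 698 and 606 TPM in young WT, 588 and 537 TPM in young KO, 512 and 420.3 TPM in old WT and 328 and 430.4 TPM in old KO mice, a change of -0.57 (SE 0.11, adjusted p = 0.0208). Mcm7 measured 488 and 495 TPM in young WT, 419 and 417 TPM in young KO, 407 and 333 TPM in old WT and 299.9 and 330.4 TPM in old KO mice, a change of -0.44 (SE 0.11, adjusted p = 0.0312). All 4 old libraries lay below all 4 young ones for these genes too, so Mcm2 was the only subunit with an overlap. Beside genes of similar length, Mcm2 and Mcm3 stood lowest (differences of -0.22 each) and Mcm7 was closest to them (a difference of -0.03). Mcm10, which acts with the helicase as it is activated, measured 51.8 and 36.0 TPM in young WT, 35.1 and 34.3 TPM in young KO, 33.6 and 24.3 TPM in old WT and 19.99 and 26.9 TPM in old KO mice, a change of -0.68 (SE 0.13, adjusted p = 0.0219). Its young WT replicate 1 stood apart at 51.8 TPM.

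The promoters of the 51 genes were searched for letters of E2F binding sites. The windows are those of RefSeq (GRCm38.p6, the build called mm10), 250 bases before to 50 bases after a gene's start, and were matched for 43 of the 51 genes. The letters searched, on both strands, were TTTGGCGC, TTTCCCGC, TTTCGCGC and TTTGCCGC, which can overlap one another, and CCAAT, the box bound by NF-Y. At least 1 of the E2F letter sets was found in 15 of the 43 windows (34.9%) and in 2.6% of the 27025 genes with a window. Of the 22 genes lower in old mice, 20 had a window and 11 of these held the letters (55%), as did 4 of the 23 windows of genes not called with age (17.4%) and none of the 6 windows of the 7 genes higher in KO mice. CCAAT was found in 25 of the 43 windows (58.1%) and in 41.1% of all genes, and in 2 of the 6 windows of genes higher in KO mice (33.3%). A match describes letters and is no evidence of binding, and no test was made. The bases upstream of the start are shown for Mcm6 and Mcm5, which fell with age and carry more than 1 match, and for Orc3 and Pola1, which carry a match and did not pass, with the matched E2F letters in capitals and all other bases, CCAAT included, in lower case.
Mcm6, chr1:128359715-128359845, minus strand: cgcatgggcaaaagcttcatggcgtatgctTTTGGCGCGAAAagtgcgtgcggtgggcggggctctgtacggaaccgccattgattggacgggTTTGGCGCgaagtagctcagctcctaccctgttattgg
Mcm5, chr8:75109326-75109397, plus strand: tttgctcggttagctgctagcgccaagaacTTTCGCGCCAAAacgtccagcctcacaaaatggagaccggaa
Orc3, chr4:34614946-34615013, minus strand: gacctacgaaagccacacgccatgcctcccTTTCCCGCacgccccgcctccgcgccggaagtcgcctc
Pola1, chrX:93632256-93632323, minus strand: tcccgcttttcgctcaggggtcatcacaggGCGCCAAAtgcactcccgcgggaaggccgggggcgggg
Shorter stretches around the match are shown for 4 other genes that fell with age. These lie upstream of the RefSeq start but inside the gene as annotated by GENCODE, for Orc1 in part.
Cdc6, chr11:98908002-98908031, plus strand: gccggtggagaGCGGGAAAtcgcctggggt
Mcm7, chr5:138172030-138172059, minus strand: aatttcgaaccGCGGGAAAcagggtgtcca
Orc1, chr4:108579416-108579445, plus strand: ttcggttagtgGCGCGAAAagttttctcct
Gins3, chr8:95633507-95633536, plus strand: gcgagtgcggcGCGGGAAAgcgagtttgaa
In Mcm6, matches on opposite strands overlap in the run farther from the start, and another match lies nearer to it. The same overlap of 2 matches on opposite strands forms the run of capitals in Mcm5. Cdc6, Mcm7 and Gins3 share the letters GCGGGAAA, the reverse complement of TTTCCCGC. Mcm5 and Mcm6 had log2 changes of -0.61 and -0.57 with age, and Orc3 and Pola1 of -0.35 and -0.26. These genes were chosen by whether they passed with age, so this difference follows from the choice.

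Of the genes that turn the loaded helicase into an active fork, Gins3 fell with age beside Mcm10. Gins3, a subunit of the 4-part GINS ring, measured 39.0 and 31.6 TPM in young WT, 33.4 and 30.8 TPM in young KO, 29.0 and 27.0 TPM in old WT and 19.2 and 24.4 TPM in old KO mice, and all old libraries were below all young ones. Its change was -0.49 (SE 0.13, adjusted p = 0.0348). Gins1, Gins2, Gins4 and Cdc45 did not pass, with changes from -0.36 to -0.08. Gins2 differed most from genes of its length: its change of -0.31 stood beside a median of 0.06, and with a correction for length it passed at -0.62 (adjusted p = 0.0196).

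The clamp and its loader did not pass with age in any of 6 genes. Pcna (ENSMUSG00000027342, chr2:132249162-132253314), the sliding clamp, measured 300.1 and 307 TPM in young WT, 421 and 334 TPM in young KO, 284 and 300.1 TPM in old WT and 304 and 384 TPM in old KO mice. Values in the WT mice were nearly level, and 3 of the 4 KO mice lay above all of them. The change of Pcna with age was -0.15 (SE 0.12, adjusted p = 0.381). Reads of Pcna may be shared with the processed copy Pcna-ps2, listed at 40.5 to 73.6 TPM, so its level is uncertain to that extent. Rfc1 to Rfc5, the subunits that open the clamp and place it on DNA, had changes from -0.41 (Rfc1) to -0.09 (Rfc4).

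Polymerase genes split between subunits. Pold1 (ENSMUSG00000038644, chr7:44532746-44548849), the catalytic subunit of polymerase delta, had the lowest estimate of all 51 genes. It measured 229.5 and 162 TPM in young WT, 117 and 133 TPM in young KO, 136 and 94.5 TPM in old WT and 71.0 and 82.2 TPM in old KO mice. Both old KO mice were below every other library, and young WT replicate 1 was the highest. The change of Pold1 was -0.78 (SE 0.13, adjusted p = 0.0176), -0.75 within batch 1 and -0.82 within batch 2. Pold3, an accessory subunit of the same enzyme, measured 153 and 104 TPM in young WT, 103 and 91.5 TPM in young KO, 95.1 and 90.1 TPM in old WT and 61.0 and 74.8 TPM in old KO mice, a change of -0.59 (SE 0.11, adjusted p = 0.0219). Pola2, the B subunit of polymerase alpha, measured 135 and 142 TPM in young WT, 122 and 123 TPM in young KO, 127 and 94.9 TPM in old WT and 81.0 and 95.7 TPM in old KO mice, a change of -0.44 (SE 0.11, adjusted p = 0.0319). For Pold3 and Pola2 the age groups overlapped through an old WT mouse. Pole, the catalytic subunit of polymerase epsilon, had a change of -0.69 that missed the threshold (SE 0.22, adjusted p = 0.0532), and Pold2, Pole2, Pola1, Prim1 and Prim2 had changes from -0.34 to -0.22 that did not pass.

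Among the genes of RPA, which coats single strands, only the largest subunit passed. Rpa1 measured 285 and 169 TPM in young WT, 189.6 and 148 TPM in young KO, 167 and 183 TPM in old WT and 88.0 and 146 TPM in old KO mice, a change of -0.52 (SE 0.12, adjusted p = 0.0279). Its WT libraries lay between 167 and 183 TPM except young WT replicate 1 at 285 TPM, so the level in young WT rests on that mouse. Rpa2 had a change of -0.35 (adjusted p = 0.0643), with all old libraries below all young ones. Rpa3, the smallest subunit and the shortest of all 51 genes, had the highest estimate, 0.33 (SE 0.15, adjusted p = 0.122), and was higher in the old mouse in all 4 pairs of the same genotype and batch.

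In nucleotide supply, Rrm1 fell and 4 genes did not pass. Rrm1, the large subunit of ribonucleotide reductase, measured 249.6 and 192 TPM in young WT, 189 and 175 TPM in young KO, 182 and 144 TPM in old WT and 97.3 and 158 TPM in old KO mice, a change of -0.53 (SE 0.12, adjusted p = 0.027). Genes of its length had a median of -0.54, the closest to its own of all genes that fell. Rrm2, the small subunit whose protein is limited to cycling cells, measured 202 and 197 TPM in young WT, 239 and 193 TPM in young KO, 196 and 158 TPM in old WT and 114 and 216 TPM in old KO mice. Its old KO mice differed most from each other, and its change was -0.35 (SE 0.14, adjusted p = 0.103). Tyms, Dut and Tk1, enzymes of thymidine nucleotides, had changes of 0.03, 0.07 and -0.21.

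Both genes of lagging-strand maturation fell. Fen1, the flap nuclease, measured 280.2 and 300 TPM in young WT, 272 and 260.2 TPM in young KO, 249 and 206 TPM in old WT and 172 and 222 TPM in old KO mice, a change of -0.44 (SE 0.11, adjusted p = 0.0331) with no overlap between ages. Lig1, the ligase that seals the fragments, measured 166 and 129.9 TPM in young WT, 114 and 136 TPM in young KO, 118 and 88.6 TPM in old WT and 141 and 112 TPM in old KO mice, a change in counts of -0.51 (SE 0.13, adjusted p = 0.0321). In TPM the young and old KO mice were level, at means of 125 and 127 TPM. The 3091-base transcript ENSMUST00000098814 was lower in old KO mice (66.7 and 67.3 TPM) than in young KO mice (106 and 105 TPM), whereas the 1053-base transcript ENSMUST00000185145 was listed at 43.2 and 31.3 TPM in old KO, 0 and 18.5 TPM in young KO, and 0 to 1.98 TPM in WT mice. TPM gives a short transcript more weight than counts do.

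Chaf1a and Chaf1b encode subunits of the CAF-1 factor, which places histones on new DNA. Chaf1a measured 84.4 and 74.2 TPM in young WT, 51.5 and 62.4 TPM in young KO, 58.8 and 38.2 TPM in old WT and 33.0 and 39.4 TPM in old KO mice, a change of -0.74 (SE 0.13, adjusted p = 0.0198), the second lowest of the 51 genes. Its old WT replicate 1 lay within the young range. Chaf1b did not pass (-0.32, adjusted p = 0.08003).

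Of 3 genes that drive entry into S phase and Slbp, a gene of histone mRNA, E2f1 and Ccne2 fell with age and Ccne1 and Slbp did not pass. E2f1 (ENSMUSG00000027490, chr2:154559407-154569892), the transcription factor, measured 58.2 and 66.8 TPM in young WT, 53.2 and 49.5 TPM in young KO, 44.6 and 36.5 TPM in old WT and 33.5 and 34.7 TPM in old KO mice. All old libraries, at 33.5 to 44.6 TPM, lay below all young ones, at 49.5 to 66.8 TPM. The change of E2f1 was -0.65 (SE 0.12, adjusted p = 0.0208), and -0.71 within batch 1 and -0.60 within batch 2. Cyclin E partners the kinase Cdk2 at this step: Ccne2 measured 41.3 and 25.3 TPM in young WT, 42.7 and 20.5 TPM in young KO, 25.3 and 26.7 TPM in old WT and 12.1 and 24.8 TPM in old KO mice, a change of -0.67 (SE 0.17, adjusted p = 0.0329). The young KO mice differed most from each other, and old KO replicate 1 was the lowest library. Ccne1 measured 22.9 and 22.4 TPM in young WT, 20.1 and 17.7 TPM in young KO, 18.3 and 13.8 TPM in old WT and 11.8 and 17.0 TPM in old KO mice, and its change of -0.47 (SE 0.16, adjusted p = 0.0621) did not pass. Slbp, which binds the stem-loop of histone mRNAs, measured 495 and 404 TPM in young WT, 535 and 385 TPM in young KO, 386 and 426 TPM in old WT and 264 and 438 TPM in old KO mice. Its values overlapped between ages and its change was -0.32 (SE 0.11, adjusted p = 0.0746).

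The change with age followed effective length among these genes, as it did among protein-coding genes above 5 TPM. Of the 23 genes of 2000 bases or more, 20 fell, of the 16 genes from 1200 to 2000 bases, 2 fell, and of the 12 genes under 1200 bases, none fell. Their median changes were -0.59, -0.34 and -0.15, beside medians of -0.42, -0.25 and -0.03 for genes of similar length. In all, 46 of the 51 genes lay below the median of the 300 protein-coding genes nearest in length, and Rfc1, Pola1, Rpa3, Rrm1 and Dut lay above it. With a per-library correction for length, 15 of the 51 genes fell, against 4.83% of all genes (2.71% rose), with 45 lower at an unadjusted p under 0.05. These 15 held 12 of the 22 (Mcm2, Mcm3, Mcm6, Mcm10, Cdc6, Cdt1, Pold1, Pold3, Rpa1, Fen1, Chaf1a and E2f1) and also Gins2, Rpa2 and Tk1, whose lengths are 716, 1484 and 888 bases. The length-corrected median change was -0.35 for the 51 genes and 0.03 for all genes. Which of these scales is nearer to the RNA content was not tested.

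**Figure D3:**
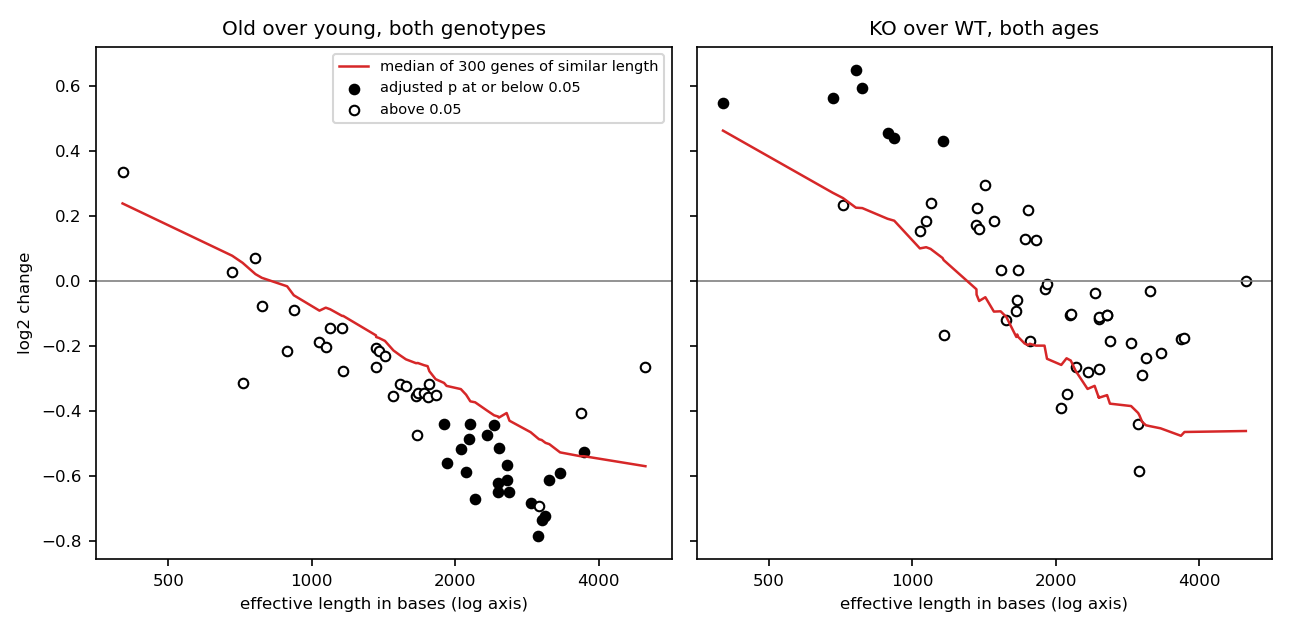
Each point is a replication gene, placed by effective length in bases (log axis) and log2 change, for old over young (left) and KO over WT (right); filled points passed at an adjusted p of 0.05 and the red line is the median of 300 genes of similar length. On the left 46 of 51 points lie below the line, and on the right 44 of 51 lie above it, with the 7 filled points at under 1200 bases.

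Between genotypes, taken over both ages, 7 of the 51 genes rose in KO mice and none fell. With litter as a block, which sets each KO mouse against its WT littermate, only Dut and Tyms of these 7 passed (adjusted p = 0.0368 and 0.0421), and Gins1, Pcna, Rfc4, Rpa3 and Tk1 had adjusted p of 0.0566, 0.0594, 0.0574, 0.0708 and 0.0662. Without the block 8 were higher and 7 lower at an unadjusted p under 0.05, and DESeq2 called 7 higher and 4 lower. The values of single genes below are from the fit without the block. Over all genes tested 3.19% rose, 6.78% fell and 9.98% passed in either direction. The 7 were Dut, Tyms and Tk1 of thymidine nucleotide supply, Gins1, Rfc4, Rpa3 and Pcna, and the median change of the 51 genes was -0.04, beside 0.10 for all genes. For genes of similar length to each of the 51, the median was -0.20. Each of the 7 was higher in the KO mouse of all 4 litters; KO was higher in all 4 litters for 7 of the 51 genes, against 12.3% of all genes, so this count was near the background. The count of 7 became 0 without old KO replicate 1, old KO replicate 2, old WT replicate 1, old WT replicate 2 or young WT replicate 1, 1 without young KO replicate 1, and 0 without litter 1. It was 0 within batch 1 and 5 within batch 2 (3 higher, 2 lower), with medians of -0.15 and -0.004.

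Dut (ENSMUSG00000027203, chr2:125247190-125258608), which removes dUTP so that uracil is not built into DNA, measured 264 and 282 TPM in young WT, 364 and 343 TPM in young KO, 284 and 264 TPM in old WT and 387 and 415 TPM in old KO mice. All 4 KO libraries lay above all 4 WT libraries. The log2 change of Dut between genotypes was 0.65 (SE 0.13, adjusted p = 0.0213). Its mean TPM was 377 ± 31.1 in KO and 274 ± 10.8 in WT libraries (SD, n = 4). Tyms (ENSMUSG00000025747, chr5:30058202-30073617), which makes thymidylate, measured 263 and 355 TPM in young WT, 486 and 428 TPM in young KO, 353 and 301 TPM in old WT and 456 and 499 TPM in old KO mice. Its KO and WT libraries did not overlap either. The change of Tyms was 0.56 (SE 0.12, adjusted p = 0.0237), and its mean TPM was 467 ± 31.4 in KO and 318 ± 44.2 in WT libraries (SD, n = 4). Of the TPM of Tyms only 7.85% to 12.1% came from transcripts annotated as protein-coding, and most came from short transcripts annotated as targets of nonsense-mediated decay.

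Gins1 was the only other gene with all KO above all WT libraries, a pattern of 3 of the 51 genes and of 1.8% of all genes. It measured 44.9 and 57.8 TPM in young WT, 71.7 and 64.4 TPM in young KO, 51.6 and 44.6 TPM in old WT and 64.0 and 74.5 TPM in old KO mice, a change of 0.59 (SE 0.15, adjusted p = 0.0334). Tk1, the salvage kinase of thymidine, measured 209.9 and 300.1 TPM in young WT, 296 and 302 TPM in young KO, 248 and 182 TPM in old WT and 298 and 251 TPM in old KO mice. A young WT mouse reached 300 TPM, within the KO range, and the change was 0.46 (SE 0.13, adjusted p = 0.0443). Pcna, whose values are given above, had a change of 0.43 (SE 0.12, adjusted p = 0.0475). For Pcna the KO libraries ran from 305 to 421 TPM and the WT libraries from 284 to 307 TPM, with a small overlap.

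Rfc4, a clamp loader subunit, measured 178 and 129 TPM in young WT, 212 and 156 TPM in young KO, 140.2 and 151 TPM in old WT and 146 and 208 TPM in old KO mice. The mice of batch 2 were higher than those of batch 1 in every group, and the genotypes overlapped. The change of Rfc4 was 0.44 (SE 0.11, adjusted p = 0.0353), 0.34 within batch 1 and 0.44 within batch 2. Rpa3 (ENSMUSG00000012483, chr6:8255936-8259173) measured 92.5 and 55.8 TPM in young WT, 125 and 75.4 TPM in young KO, 77.5 and 116 TPM in old WT and 98.1 and 152 TPM in old KO mice. It too was higher in batch 2 in every group, and its KO and WT values overlapped widely. Its change was 0.55 (SE 0.15, adjusted p = 0.0401).

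**Figure D4:**
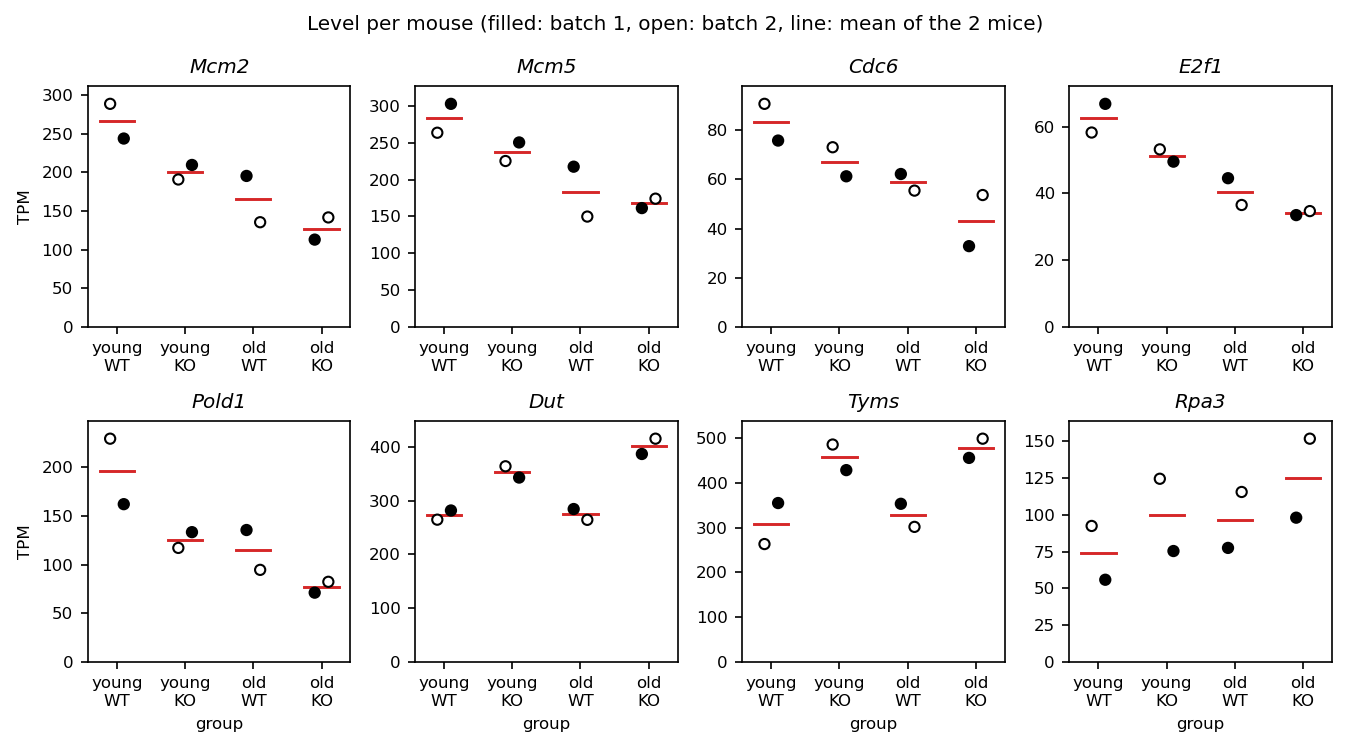
TPM of 8 replication genes in each mouse by group, with the mean of the 2 mice as a red line; filled points are batch 1 and open points batch 2. Mcm2, Mcm5, Cdc6, E2f1 and Pold1 step down from young WT to old KO, Dut and Tyms are higher in KO than in WT at both ages, and Rpa3 is higher in batch 2 than in batch 1 in every group.

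All 7 genes that rose in KO mice were among the 12 genes under 1200 bases, where the median change of genes of similar length was 0.19. Tyms stood there through short non-coding transcripts: its effective length was 681 bases, while its most abundant protein-coding transcript has 3163 bases. Whether a comparison by length suits such a gene was not tested. Among genes nearest in length, the share called higher in KO mice ran from 3.67% for Pcna to 27.3% for Rpa3. With the correction for length none of the 51 genes passed (4 higher and 3 lower at an unadjusted p under 0.05), against 1.39% of all genes that rose and 2.82% that fell, and the change of Dut was 0.28 (adjusted p = 0.133), that of Tyms 0.14 (adjusted p = 0.396) and that of Rpa3 -0.05 (adjusted p = 0.863). In all, 44 of the 51 genes lay above the median of genes of similar length, and the median difference over all 51 was 0.21. The 10 genes that mark long-term stem cells summed to 306 to 626 TPM in KO and 634 to 1119 TPM in WT libraries, none at 0, and the 8 of stroma and endothelium to 42.0 to 51.04 and 58.9 to 86.4 TPM, neither with overlap. Neither of those sums is corrected for length, and whether such cells were fewer in KO mice was not tested. Of 11 erythroid marker genes 8 fell in KO mice and none rose, with a median of -1.94 and likewise 8 with the correction for length, and they summed to 1390.0 to 2461 TPM in KO and 1770.0 to 3195 TPM in WT libraries. Of 7 marker genes of mast cells and basophils 4 fell and none rose, and they summed to 34.7 to 154 and 55.9 to 139 TPM. Both of these sums overlapped, no gene of either list was at 0 in every library, and the part of these cell types in the changes of the replication genes was not tested.

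Long replication genes had negative estimates in KO mice without passing. The 6 Mcm genes had changes from -0.24 (Mcm2) to -0.03 (Mcm5), while genes of their length had medians from -0.45 to -0.32. Pold1 missed the threshold most narrowly (-0.44, SE 0.13, adjusted p = 0.0539), followed by Rpa1 (-0.39, adjusted p = 0.0618) and Pold3 (-0.35, adjusted p = 0.0721). Pole was the one gene with all KO libraries, at 14.9 to 25.6 TPM, below all WT libraries, at 28.4 to 39.9 TPM. The share of all genes with this pattern was not counted, so no result is drawn from it. The change of Pole, -0.58, did not pass (adjusted p = 0.104). Cdc6, Cdt1, E2f1, Ccne1, Ccne2, Rrm2, Slbp and Orc1 had changes from -0.27 to 0.13 with adjusted p from 0.157 to 0.966.

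Within a single age or genotype no replication gene passed by edgeR, where 0.65% of all genes passed for KO against WT in old mice, 0.0626% in young mice and 0.0861% with age in each genotype. At an unadjusted p under 0.05, 7 of the 51 genes were higher and 2 lower in old KO than in old WT mice, led by Dut (0.84, adjusted p = 0.0647) and Tyms (0.69, adjusted p = 0.0795). DESeq2 called 6 higher and 1 lower there, and limma on log2(TPM + 1) 1 in each direction. In young mice 3 were higher and 2 lower at that unadjusted p and neither DESeq2 nor limma called any. With age, 22 of the 51 genes were lower and none higher at an unadjusted p under 0.05 in WT mice, led by Mcm2 (-0.81, adjusted p = 0.281), and likewise 22 lower and none higher in KO mice, led by Ccne2 (-0.95, adjusted p = 0.111). DESeq2 called 9 lower in WT and 17 lower in KO mice, and limma none. Estimates were below 0 in both genotypes for 47 of the 51 genes. The interaction of genotype and age passed for none of them (0.00391% of all genes), with none at an unadjusted p under 0.05 by edgeR or DESeq2 and 1 lower by limma on log2(TPM + 1), so a difference in the age change between genotypes was not detectable with 2 mice a group.

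Other genes of the process moved with age too. Of a list of 46 other replication and S phase genes, 18 fell and none rose (12 lower with the correction for length), with a median of -0.39, where 9.61% of all genes fell. The 6 with the smallest adjusted p were Uhrf1, which recognises newly copied methylated DNA (-0.72), Ssrp1, a subunit of the histone chaperone FACT (-0.67), the repressor E2f8 (-0.77), the kinase Cdk2 (-0.57), the clamp loader gene Chtf18 (-0.67) and the nuclease Dna2 (-0.78). Between genotypes 5 of the 46 rose and 1 fell, where 3.19% of all genes rose and 6.78% fell, and with the correction for length 1 rose and none fell. Those that rose were Tipin (0.51), Gmnn, the inhibitor of Cdt1 (0.49), the histone chaperone Nasp (0.48) and the RNase H2 subunits Rnaseh2b (0.50) and Rnaseh2c (0.62). Cdc7, the kinase that activates the helicase, was the one that fell (-0.55), from 52.0 to 31.9 TPM. Of 25 genes of G2 and M phase 4 fell with age and none rose, beside 9.61% of all genes that fell, and 1 fell with the correction for length. Between genotypes 3 of the 25 rose and none fell, and none passed with the correction. Their median change with age was -0.29, and their TPM summed to 3612 to 4104 in young and 2839 to 4014 in old libraries, which overlapped. Of 15 genes of quiescence 6 fell and 1 rose with age, and 6 fell and 1 rose in KO mice (2 and 4 fell with the correction for length). Of the 11 erythroid marker genes 7 fell with age and none rose, with a median of -1.54 and summed levels of 1390.0 to 3077 TPM in old and 1854 to 3195 TPM in young libraries, which overlapped. Megakaryocyte markers, 7 genes of which Gp6 was under 1 TPM and none at 0, summed to 137.0 to 167 TPM in old and 89.4 to 136.9 TPM in young libraries and just missed an overlap, and the part of these cell types in the changes with age was not tested.

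The annotated kinds of transcript behind these levels differed between genes. Protein-coding transcripts held 76.5% to 82.0% and transcripts with a retained intron 12.5% to 16.2% of the summed TPM of the 51 genes, and over 90% of the TPM of 36 genes was protein-coding on average. For Rfc2, Gins2, Tyms and Orc4 it was under 50%. Rfc2, the gene with the highest level, had 11.6% in protein-coding and 74.2% in retained-intron transcripts, and Gins2 12.7% and 86.2%. Their protein-coding transcripts have 4995 and 3900 bases, beside effective lengths of 1038 and 716 bases. The comparisons by length above thus place both genes by their shorter non-coding transcripts. Slbp differed by batch: 1.19% to 3.47% of its TPM came from retained-intron transcripts in batch 1 and 10.6% to 14.2% in batch 2. When only protein-coding transcripts were counted, an alternative chosen after the data were seen, 12 of the 51 genes fell with age, all among the 22: Mcm2, Mcm3, Mcm4, Mcm5, Mcm6, Mcm10, Cdc6, Cdt1, Pold1, Pold3, Chaf1a and E2f1. The same 7 genes rose in KO mice.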

How the data were processed

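RNA with polyA tails from the LSK cells of 8 mice was sequenced after SMART-Seq v4 amplification, per the labels. The submitters' processing notes name kallisto, mm10 and DESeq2, and the roles and versions are not given in the sources used here. The deposited tables hold kallisto's estimated counts, TPM and effective length for 115088 transcripts, per the file headers. The authors' estimated counts and TPM were summed per gene after 114200 transcripts were matched to GENCODE vM21; the other 888 held 0.259% to 0.470% of counts and were left out. Sums were rounded and tested with edgeR 4.0.16 (R 4.3.3) quasi-likelihood F tests after filterByExpr (minimum count 10, minimum total 15) and TMM scaling, with Benjamini-Hochberg adjustment over 25543 genes and a threshold of 0.05. Comparisons over both ages or genotypes used an additive model of the 3 factors genotype, age and batch, leaving 4 residual degrees of freedom, and the others a model of the 4 groups with batch, leaving 3. In these fits p values measure the spread between mice taken as independent, so for age they leave out what littermates share. The part of depth in the precision was not tested. The length correction started in each library from log2 CPM (depth-scaled counts) minus the gene's mean over libraries. A lowess trend (span 0.3) of this difference on log2 effective length, centered on its median, was the offset. The trend was fitted over protein-coding genes above 5 TPM. Medians for genes of similar length came from the 300 nearest of 9782 such genes. Alternatives used DESeq2 1.42.0, limma 3.58.1 (pseudocounts 1 and 0.1), other filters and scalings, left-out libraries, single batches, counts summed per litter and, for genotype, litter as a block, since the labels pair littermates. The fits were tested on simulated data. Tables were made with numpy 2.4.6 and pandas 2.3.3 and figures with matplotlib 3.10.9, under Python 3.11.15. Values in every library are given for each gene that passed in any of 7 comparisons and for 12 genes always named, the other genes are given by range, and of the 46 further replication genes at most 6 per comparison are named. The members, gene lists and rules were chosen with earlier results of these data known. Promoters are from RefSeq.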

Additional observations from a re-analysis of the deposited data

Results flagged for a closer look

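In 9 of 132 groups of 4 libraries examined, the highest or lowest library of a replication gene stood apart from the other 3 by more than 0.83 of the group's range. For independent values of a single kind, chance gives this in about 1 group of 20. The groups here share libraries and pool ages or genotypes, so that rate is only a guide and the count of 9 is no result. Young WT replicate 1 was the library in 5 of the 9. It was the highest WT library for Orc2 (58.3 TPM, others 33.1 to 35.0), Rpa1 (285 TPM, others 167 to 183) and the cyclin gene Ccne2 (41.3 TPM, others 25.3 to 26.7). It was also the highest young library for Mcm10 (51.8 TPM, others 34.3 to 36.0) and the lowest young library for Tk1 (209.9 TPM, others 296 to 303). Old KO replicate 2 was the highest old library for Rfc4 (208 TPM, others 140.2 to 151) and the lowest KO library for Tk1 (251 TPM, others 296 to 303). Old KO replicate 1 was the lowest old library for Ccne2 (12.1 TPM, others 24.8 to 26.7). Old WT replicate 2 was the lowest WT library for Rrm2 (158 TPM, others 196 to 202). Young WT replicate 1 also had the flattest slope of TPM on length (-0.265, both as logs) and the highest Kit level (547 TPM), and their part in these values was not tested.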

How the results depend on the processing

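With 2 mice a group and ages that lie in different litters, calls of replication genes moved with the processing, and the direction of the 22 genes that fell with age held under all 21 alternatives, each gene passing in 6 to 14 of them. The 22 became 0 by limma on log2(TPM + 1), on log2(TPM + 0.1) and without a filter, 3 without a batch term, 5 in batch 1 alone, 9 in batch 2 alone, 0 without litter 1, 12 with protein-coding transcripts only, and 0 to 27 with 1 library left out. The 7 genes higher in KO each passed in 5 to 11 of 22 alternatives. The count of genes that passed in either direction became 11 by DESeq2 (7 higher, 4 lower), 4 by limma on log2(TPM + 1) and log2(TPM + 0.1) (3 higher and 1 lower in each), 0 without a filter there, 0 with the length correction, 0 without a batch term, 0 in batch 1 alone, 0 without litter 1, and 0 to 10 (at most 7 higher and 3 lower) with 1 library left out. With litter as the replicate block it was 2, and 0 with the block and the length correction together; Rpa3 turned to -0.0462 with the length correction and to -0.0462 with both. The block changed no count within 1 age or in the interaction. Main counts of 0 became, for KO against WT in old mice, 7 by DESeq2, 1 without the low count filter, 2 and 1 by limma on log2(TPM + 1) and log2(TPM + 0.1), and 0 to 4 with 1 library left out. They became 0 to 1 in young mice with 1 library left out. With age in WT mice they became 9 by DESeq2, 6 without the filter and 0 to 8 with 1 library left out, and in KO mice 17, 9 and 0 to 20. The interaction stayed at 0 under every alternative run. Where leaving out a library left 1 mouse in a group, that mouse was taken to vary like the others. The causes of these shifts were not tested.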
